A study of Mus musculus with 16 samples.

Results

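The 9 genes described here encode the receptors, ligand, adaptors and binding proteins of insulin and insulin-like growth factor (IGF) signalling: Insr, Igf1r, Igf2r, Igf1, Irs1, Irs2, Grb10, Igfbp4 and Igfbp5. They were chosen by name out of 18193 genes, and all probe sets whose only annotated symbol was one of these names were taken, 27 of 45037. RNA of the hippocampus was measured on 16 Affymetrix mouse arrays, 1 per numbered subject, so the animal is the replicate. All animals were female 3xTG-AD mice of 14 months, a model of Alzheimer's disease in which mutant human APP and tau are expressed in neurons from Thy1 regulatory sequence on a mutant presenilin 1 background. From 10 months of age, for about 14 weeks, 8 of them ate a control diet and 8 ate a diet with pioglitazone (PIO) at 84 ppm, which comes to about 18 mg daily for each kg of body weight. PIO is an agonist of the nuclear receptor PPAR gamma and an insulin-sensitizing drug. Every animal carried the transgenes, so no comparison here is with a mouse free of them.

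Insulin and IGF1 act through related receptor tyrosine kinases, the products of Insr and Igf1r, which phosphorylate the docking proteins IRS1 and IRS2 and through them start the PI3K and AKT arm and the RAS and MAPK arm. The product of Igf2r is a different kind of receptor, which takes up IGF2 for degradation and carries lysosomal enzymes. GRB10 binds the activated receptors and dampens their signal, and IGFBP4 and IGFBP5 are secreted proteins that hold IGFs outside the cell. In the brain, Igf1 is made by some neurons and by glia, and receptor signalling is known for its part in neuronal survival, plasticity and energy use.

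The start site regions of Grb10, Igf1 and Igfbp5 are printed because these members had the smallest p-values below. Each run is the 250 bases before a RefSeq start in build GRCm38.p6, written 5′ to 3′ on the gene's strand. Capitals mark matches on either strand to GGGCGG, the GC box bound by SP1, or to AGGTCA, the core hexamer of nuclear receptor sites.
Grb10 upstream start, chr11:12037421-12037670, minus strand: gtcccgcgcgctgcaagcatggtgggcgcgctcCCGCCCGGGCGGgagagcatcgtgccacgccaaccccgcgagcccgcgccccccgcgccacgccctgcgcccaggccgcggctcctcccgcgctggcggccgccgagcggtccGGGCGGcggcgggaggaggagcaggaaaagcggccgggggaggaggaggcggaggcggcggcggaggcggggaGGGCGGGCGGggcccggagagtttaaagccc
Grb10 downstream start, chr11:12027972-12028221, minus strand: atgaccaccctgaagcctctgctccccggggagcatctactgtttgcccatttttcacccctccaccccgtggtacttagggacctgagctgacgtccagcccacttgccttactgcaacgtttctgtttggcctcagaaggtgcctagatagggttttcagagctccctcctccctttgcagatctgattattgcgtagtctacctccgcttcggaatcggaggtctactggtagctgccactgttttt
Igf1, chr10:87860861-87861110, plus strand: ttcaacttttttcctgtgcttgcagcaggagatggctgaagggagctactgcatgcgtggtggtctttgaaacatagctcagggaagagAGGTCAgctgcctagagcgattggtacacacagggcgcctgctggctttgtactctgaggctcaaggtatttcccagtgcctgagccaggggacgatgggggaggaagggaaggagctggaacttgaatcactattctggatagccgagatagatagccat
Igfbp5, chr1:72874866-72875115, minus strand: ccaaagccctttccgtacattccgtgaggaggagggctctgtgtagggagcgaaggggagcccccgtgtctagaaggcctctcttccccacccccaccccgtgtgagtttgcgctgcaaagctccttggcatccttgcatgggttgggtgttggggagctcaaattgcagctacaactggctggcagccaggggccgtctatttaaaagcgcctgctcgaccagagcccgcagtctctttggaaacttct
The upstream Grb10 start has 5 GC boxes, at 217, 211, 104, 31 and 27 bases before the start, and Igf1 has 1 hexamer, at 161 bases. The other Grb10 window and that of Igfbp5 hold no match to these letters. The Grb10 windows differ in composition, with 81.2% G and C and 40 CpG dinucleotides at the upstream start and 54.0% and 8 at the downstream start. The Igf1 window had 52.8% G and C and 5 CpG dinucleotides, near the medians of 52.4% and 6 over 32851 windows of the same length. RefSeq windows were found for 8 of the 9 members, 9 windows in all. GGGCGG was in 5 of them and in 32.7% of all windows, and its copies can overlap each other, as at the upstream Grb10 start. AGGTCA was in 3 of the 9, those of Igf1r, Igf1 and Igf2r, and in 14.0% of all windows. The direct repeat of that hexamer with 1 base between copies, the element that PPAR and RXR bind, was in 0 of the 9 and in 0.0335% of all windows. GTAAACA, the core of FOXO sites, was in 0 of the 9 and in 3.17% of all. A match is a description of the letters in these windows.

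Expression is given on the log2 scale, as deposited. Array medians lay between 5.65 and 5.76, and pairs of arrays correlated with r of 0.994 to 0.998. Markers of hippocampal neurons were well measured, 14 of 15 listed, led by Nrgn (13.33) and Neurod6 (13.02). The arrays also differed in markers of neighbouring tissue. Mean levels of 17 choroid plexus genes formed separate clusters, at -3.20 to -2.16 in 6 arrays (4 control and 2 PIO) and 0.47 to 2.49 in 10 (4 control and 6 PIO), each gene centred over all arrays. Means of 12 striatal genes ran from -0.32 to 0.24 in controls and from -0.21 to 0.79 with PIO, highest in PIO animals 15 and 14, with the markers Drd2, Isl1 and Six3 under the filter on low values (a mean over the 16 arrays above 3.58, the 40th percentile of probe sets). Means of 13 thalamus and habenula genes ran from -0.33 to 0.051 in controls and from -0.26 to 1.01 with PIO, highest in PIO 16. Control and PIO ranges were -0.13 to 0.12 and -0.18 to 0.14 for inhibitory neurons, -0.21 to 0.39 and -0.24 to 0.20 for microglia, and -0.15 to 0.36 and -0.78 to 0.33 for endothelium. For mature oligodendrocytes they were -0.15 to 0.36 and -0.50 to 0.11, and for oligodendrocyte precursors -0.054 to 0.10 and -0.11 to 0.056. A number in the array label ran from 1 to 6 in 4 control and 2 PIO arrays and from 10 to 24 in 4 control and 6 PIO arrays, and the labels do not say what it stands for. In bulk tissue, fewer cells of a type and less RNA per cell cannot be told apart.

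The comparison asked whether the PIO diet went with other levels of these genes. With limma over 12266 genes, 0 of the 9 members had an adjusted p under 0.05, and 0% of all genes did. By the unadjusted p at the same threshold 2 members passed, Grb10 (higher) and Igfbp5 (lower), beside 7% of all genes (3.86% higher and 3.15% lower), and by a plain test with no moderation 0 members did. The unadjusted count was also 0 with the array number range as a block (Grb10 0.17, SE 0.089, and Igfbp5 -0.13, SE 0.069), in arrays 10 to 24 alone and with the choroid plexus mean as a covariate. It was 1 with shared-sequence probe sets left out, where Igfbp5 was the member lost. Other settings lowered the p of single members. With the code in the array labels as a block, unadjusted p by limma was 0.0125 for Igfbp5 and 0.0232 for the Grb10 probe set 1425458_a_at. As the mean of all its probe sets, Igf1 had an unadjusted p of 0.0113 by limma. No setting gave a member an adjusted p under 0.05. With 9 members, a count of 2 cannot be set apart from the 7% of all genes. Of the 9, 7 had a difference below 0 and 2 above, where 47.3% of all genes were below 0. The median difference of the members was -0.063 log2 units, with 0.0045 over all genes. On the brightest probe set of each gene, the 95% intervals of all 9 lay within 0.5 log2 units of 0, as did those of 92.3% of all genes. On the same probe sets, those of 4 members, Insr, Igf1r, Igf2r and Irs1, lay within 0.25, as did those of 68.6% of all genes. Other probe sets had wider intervals, of 0.037 to 0.88 for 1425457_a_at of Grb10 and -0.51 to 0.68 for 1446303_at of Igf1r. The plot of the members by animal shows the spread behind these values.

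**Figure D1:**
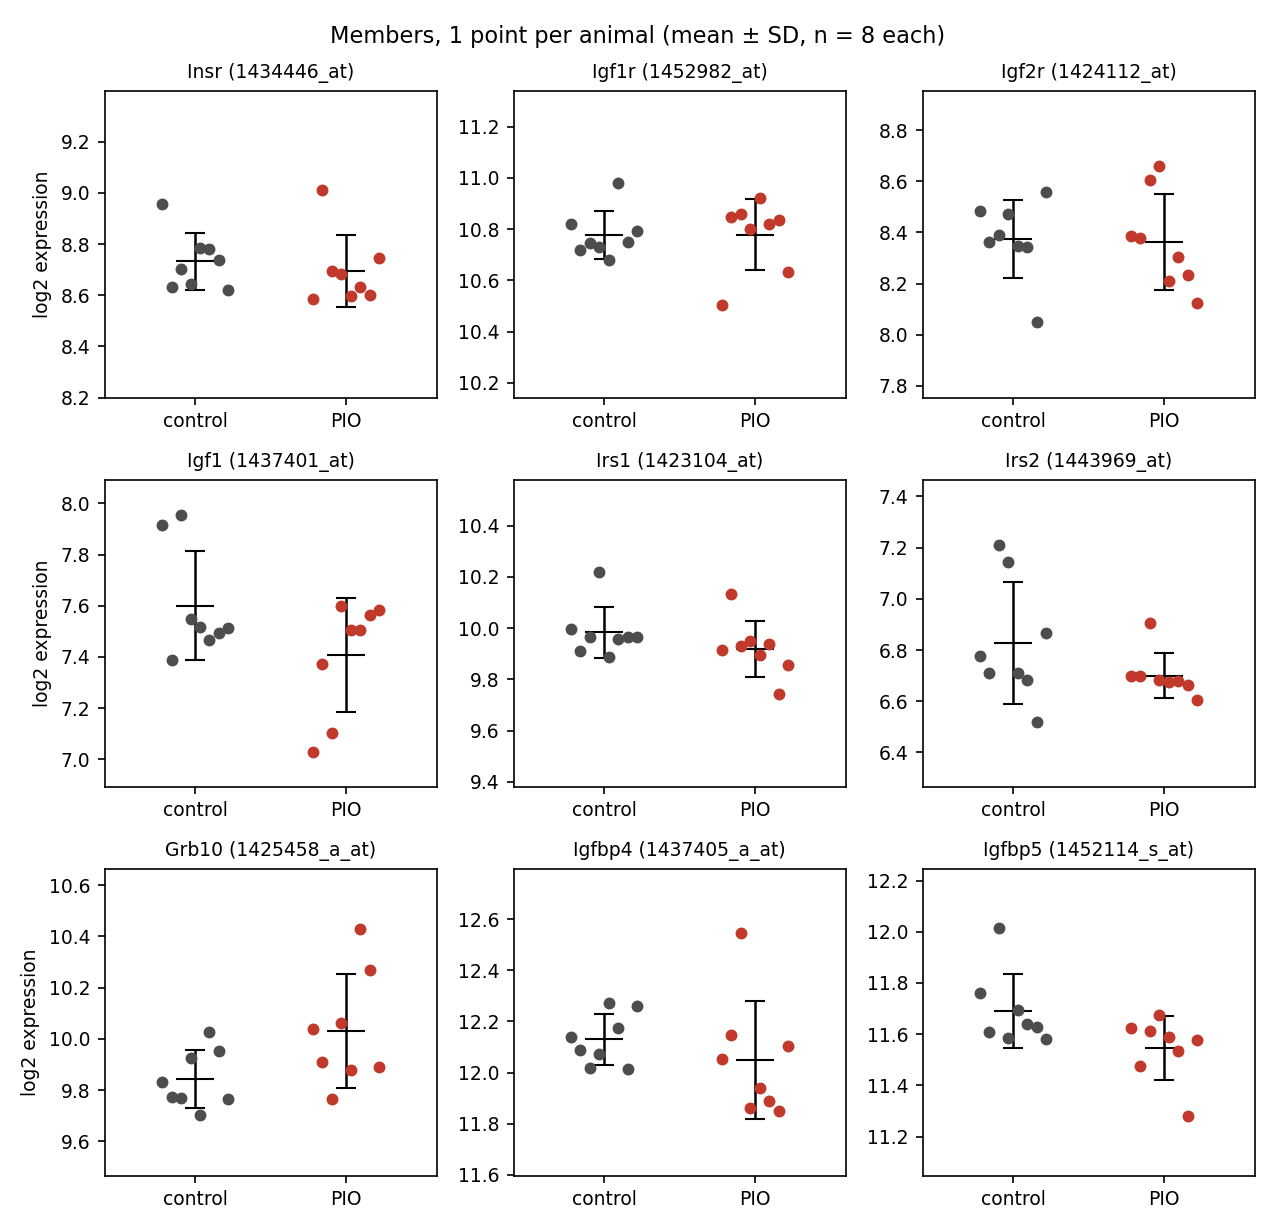
Log2 expression of the 9 members, each by its probe set with the highest mean, with 1 point per animal (control in grey, PIO in red, by animal number from left to right within a group); horizontal marks and bars are the mean ± SD (n = 8 each). Each panel spans the same length of log2 scale but is centred on its own gene. In all 9 the PIO animals overlap the controls. Single animals stand apart for Igfbp4 (PIO 11 at 12.55), Igfbp5 (control 3 at 12.02), Irs1 (control 4 at 10.22) and Irs2 (PIO 11 at 6.90). They also do for Insr (PIO 10 at 9.01), Igf1r (control 6 at 10.98) and Igf2r (control 7 at 8.05).

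Among the receptors, group means differed by at most 0.039 log2 units on the brightest probe set of each. Insr lay between 8.62 and 8.96 in controls (median 8.72) and between 8.59 and 9.01 with PIO (median 8.66). The groups overlapped, with control 1 and PIO 10 as the highest animals of each group. The difference was -0.039 (95% interval -0.17 to 0.093, exact permutation p = 0.546), and it was -0.084 without PIO 10 and -0.0067 without control 1. The other 2 Insr probe sets, at means of 2.7 and 1.61, were under the filter (3.58), so Insr rests on 1 probe set.

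Igf1r, the IGF1 receptor, ran from 10.68 to 10.98 in controls (median 10.75) and from 10.50 to 10.92 with PIO (median 10.83). PIO 9 and PIO 16 were the lowest of all animals, and the other 6 PIO animals were above the control median. Controls averaged 10.78 ± 0.094 and PIO animals 10.78 ± 0.14 (SD, n = 8 each), a difference of 0.0014 (95% interval -0.12 to 0.13). The other 4 Igf1r probe sets differed by between -0.040 and 0.084, with 2 below 0 and 2 above. In 1446303_at the value of control 5 was 4.17, while the other 15 animals were at 5.51 to 6.83.

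Igf2r, the receptor that clears IGF2, had a range of 8.05 to 8.56 in controls (median 8.38) and of 8.12 to 8.66 with PIO (median 8.34), again with overlap. Its difference was -0.013 (95% interval -0.19 to 0.16). A second probe set, 1424111_at, was at 7.46 to 8.03 in controls and at 7.76 to 8.39 with PIO, and 3 PIO animals lay above the highest control. Its difference was 0.18 (SE 0.11, adjusted p = 0.733 by limma over 27022 probe sets), so the 2 probe sets differed in sign. A further probe set shared by Igf2r and Airn, the antisense RNA of that locus, was left out and stood at a mean of 2.39, under the filter.

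Igf1, the ligand, was lower with PIO on each of its 4 probe sets, by 0.10 to 0.19 log2 units, without passing the test. The brightest, 1437401_at, lay between 7.39 and 7.96 in controls (median 7.52) and between 7.03 and 7.60 with PIO (median 7.51). The medians were nearly equal, and the means were set apart by the high controls 3 and 1 (7.96 and 7.91) and the low PIO animals 9 and 11 (7.03 and 7.10). The difference was -0.19 (SE 0.10, 95% interval -0.41 to 0.025, exact permutation p = 0.112, adjusted p = 0.745 by limma). On 1434413_at, all 8 PIO animals were below the control median, with ranges of 6.33 to 6.82 in controls and 6.07 to 6.45 with PIO and a difference of -0.18 (SE 0.076, exact permutation p = 0.0362, adjusted p = 0.649 by limma). The Igf1 values were also set out by array number. In controls, 1437401_at was at 7.70 ± 0.28 in arrays 1 to 6 and 7.50 ± 0.023 in arrays 10 to 24 (SD, n = 4 each). With PIO it was at 7.20 ± 0.24 in the 2 arrays numbered 1 to 6 and 7.48 ± 0.19 in the 6 numbered 10 to 24. Within arrays 10 to 24 the difference was -0.022 (SE 0.092), and with the number range as a block it was -0.19. For 1434413_at it was -0.078 (SE 0.076) within arrays 10 to 24.

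Of the docking proteins, Irs1 lay between 9.89 and 10.22 in controls (median 9.96) and between 9.74 and 10.13 with PIO (median 9.92). In each group 1 animal stood high, control 4 and PIO 10, and 7 of 8 PIO animals were below the control median. The difference was -0.063 (SE 0.053, exact permutation p = 0.264), and -0.029 without control 4. In the arrays of the most common label code alone (5 control and 6 PIO) it was 0.017.

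Irs2, which carries insulin signalling beside IRS1, ranged from 6.52 to 7.21 in controls (median 6.74) and from 6.60 to 6.90 with PIO (median 6.68). All 8 PIO animals were inside the control range, and the controls were the more spread group, at 6.83 ± 0.24 against 6.70 ± 0.088 (SD, n = 8 each). Its difference was -0.13 (SE 0.086, exact permutation p = 0.195). Controls 3 and 4 were the highest, at 7.21 and 7.15, and without control 3 the difference was -0.073. In arrays 10 to 24, which leave them out, the difference was 0.0057.

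Grb10, the adaptor that dampens both receptors, was the member with the smallest p by limma and had a positive difference on its 3 probe sets. By the exact permutation p, the smallest was that of Igfbp5 (0.0317). On 1425458_a_at the controls lay between 9.70 and 10.03 (median 9.80) and the PIO animals between 9.77 and 10.43 (median 9.97). PIO 14 and PIO 15 were highest, at 10.43 and 10.27, and 4 of 8 PIO animals were above the highest control. The difference was 0.19 (SE 0.084, 95% interval 0.0093 to 0.37), a 1.14-fold higher level, with an exact permutation p of 0.0479 and an adjusted p of 0.702 by limma. On 1425457_a_at the ranges were 5.79 to 6.71 in controls and 6.01 to 7.64 with PIO, and the difference was 0.46 (SE 0.20, adjusted p = 0.654 by limma). The third, 1430164_a_at, differed by 0.076 (SE 0.10).

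PIO 14 and PIO 15, the animals with the highest Grb10 values, also had the highest striatal means (0.64 and 0.79) and the lowest means of the hippocampal neuron list (-0.51 and -0.53). Over 16 arrays, as deviations from the group means, Grb10 and the striatal mean had Pearson's r of 0.72 (permutation p = 0.0021, adjusted p = 0.0729 over 99 relations) and Spearman's rho of 0.64 (permutation p = 0.00966, adjusted p = 0.25). Without the 2 arrays farthest from the median r was 0.39, so the relation weakened without them. The Grb10 difference was 0.075 (SE 0.068) with the striatal mean as a covariate and 0.088 (SE 0.066) without PIO animals 14, 15 and 16. In arrays 10 to 24 alone it was 0.19. Hippocampal neuron markers went the other way (r = -0.73, permutation p = 0.00145, adjusted p = 0.0729; rho = -0.48, permutation p = 0.0626, adjusted p = 0.344; r without the 2 farthest arrays -0.40). Other lists also had an unadjusted permutation p under 0.05 by r with Grb10. With inhibitory neuron markers r was 0.65 (adjusted permutation p = 0.111), and 0.54 without the 2 farthest arrays of that list. With astrocyte markers r was -0.60 (adjusted permutation p = 0.228), and -0.70 likewise. With mature oligodendrocyte markers r was -0.54 (adjusted permutation p = 0.309), and -0.50 likewise. The part of striatal RNA, or of RNA of these cell types, in the Grb10 values was not tested.

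Igfbp4 was below the control mean with PIO on its 6 probe sets, by 0.036 to 0.15 log2 units, none past the test. The brightest, 1437405_a_at, had a control range of 12.02 to 12.27 (median 12.11) and a PIO range of 11.85 to 12.55 (median 12.00). The controls lay close together, while 4 PIO animals were below all controls and PIO 11 was above all of them. PIO 11 was the highest PIO animal on all 6 probe sets. With PIO 11 the difference was -0.082 (SE 0.085, exact permutation p = 0.386), and without it -0.15 (SE 0.058, unadjusted p = 0.0171, adjusted p = 0.596 by limma). PIO 11 also had the highest choroid plexus mean (2.49) and the highest mean of 19 mural and leptomeningeal genes (0.97). For the latter the PIO range was -1.0 to 0.97 and the control range -0.96 to 0.77. Myh11, also listed, was under the filter and is not among the 19. Across animals, Igfbp4 and the mural and leptomeningeal mean had Pearson's r of 0.12 (permutation p = 0.684, adjusted p = 0.874). For Igfbp4, r was farthest from 0 with inhibitory neuron markers, at -0.64 (permutation p = 0.00522, adjusted p = 0.111). It was -0.38 without the 2 farthest arrays, and rho was -0.52 (permutation p = 0.0404, adjusted p = 0.25). With striatal markers r was -0.49 (permutation p = 0.0570, adjusted p = 0.373), and -0.30 without the 2 farthest arrays. For that list rho was -0.52 (permutation p = 0.0395, adjusted p = 0.25). The part of these cells and tissues in the Igfbp4 values was not tested. With the striatal mean as a covariate the Igfbp4 difference was -0.0045, and without PIO animals 14, 15 and 16 it was -0.021. Without PIO 15 alone it was -0.053. The low PIO animals on this probe set were 15, 12, 14 and 13.

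Igfbp5, the other binding protein, was lower on both of its probe sets. On 1452114_s_at the controls ran from 11.58 to 12.02 (median 11.63) and the PIO animals from 11.28 to 11.68 (median 11.58). Control 3 stood high and PIO 15 low, 4 of 8 PIO animals were below all controls, and 7 of 8 were below the control median. The difference was -0.14 (SE 0.066, 95% interval -0.28 to -0.0039), a level of 0.905 times that of controls, with an exact permutation p of 0.0317 and an adjusted p of 0.710 by limma. By its suffix, this probe set can share probes with other transcripts. The second probe set, 1422313_a_at, had ranges of 7.24 to 7.78 and 7.09 to 7.46, with all 8 PIO animals below the control median and a difference of -0.13 (SE 0.071, unadjusted p = 0.0777 by limma). Without control 3 the Igfbp5 difference was -0.097 and without PIO 15 it was -0.11, each with an unadjusted p over 0.05 by limma (0.0901 and 0.0972). In arrays 10 to 24 alone it was -0.092.

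Astrocyte markers moved with Igfbp5 across animals. Against the mean of 14 astrocyte genes, Pearson's r was 0.70 (permutation p = 0.00221, adjusted p = 0.0729 over 99 relations), Spearman's rho 0.59 (permutation p = 0.0182, adjusted p = 0.25) and r without the 2 farthest arrays 0.62. The astrocyte mean ran from -0.082 to 0.18 in controls and from -0.25 to 0.053 with PIO, highest in control 3 and lowest in PIO 15, the same animals as for Igfbp5. The part of astrocyte RNA in the Igfbp5 values was not tested. None of the 90 relations between members and marker lists other than the choroid plexus list passed an adjusted p of 0.05, and 11 had an unadjusted permutation p under 0.05 by Pearson's r and 16 by Spearman's rho. By rho the smallest p were those of Igf2r with hippocampal neuron markers (rho 0.69, permutation p = 0.00375, adjusted p = 0.235) and astrocyte markers (rho 0.68, permutation p = 0.00474, adjusted p = 0.235). Irs2 had an unadjusted permutation p under 0.05 by rho with hippocampal neuron, microglia, astrocyte and oligodendrocyte precursor markers (rho of 0.54 to 0.61). Insr, Igf1r and Irs1 had such relations too. No pooled correlation is given for the choroid plexus list, in which the arrays form separate clusters.

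**Figure D2:**
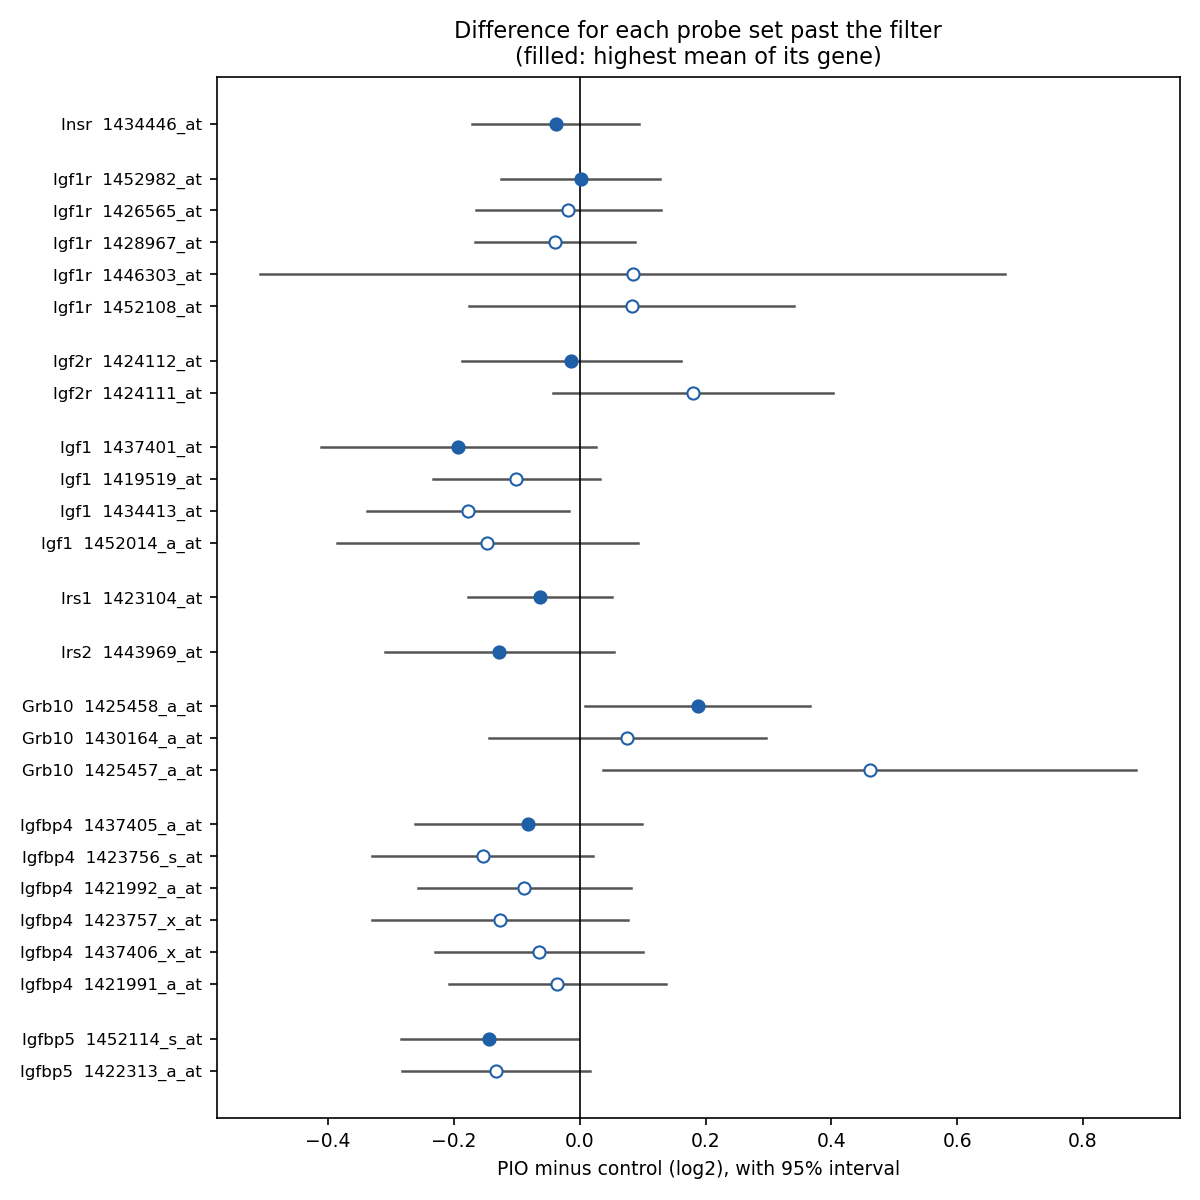
PIO minus control on the log2 scale (horizontal axis) for the 25 member probe sets past the filter, with 95% intervals from limma; filled points are the probe set with the highest mean of each gene. The 4 probe sets of Igf1, the 6 of Igfbp4 and the 2 of Igfbp5 lie below 0 and the 3 of Grb10 above it, while those of Igf1r and Igf2r lie on both sides.

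Over all member probe sets past the filter, 18 of 25 had a difference below 0 and 7 above, where 49% of 27022 probe sets were below 0. At an adjusted p of 0.05 by limma 0 of 25 passed, as did 0% of all, and at an unadjusted p under 0.05 there were 4 (2 of Grb10, 1 of Igf1 and 1 of Igfbp5), with 7.4% of all probe sets. Of the 6 members with several probe sets past the filter, 4 had all of them on the same side of 0. The share over all genes with several probe sets was not counted, and probe sets of a gene were measured in the same animals. Whether probe sets of a gene followed each other across animals varied. The 15 pairs of Igfbp4 had Pearson's r of 0.56 to 0.97 and all passed an adjusted permutation p of 0.05 (over 36 pairs), but only 9 passed by Spearman's rho, and without the 2 farthest arrays r ran from 0.21 to 0.94. By their suffix, 3 of the 6 Igfbp4 sets (_s_at and _x_at) can share probes with other transcripts. For Grb10 the 3 pairs had r of 0.70 to 0.82, and 0.47 to 0.70 without the 2 farthest arrays. Igf1 differed, since r for its 6 pairs ran from -0.10 to 0.47 and none passed an adjusted p of 0.05 by r and 1 by rho, although its 4 probe sets shared a direction of the group difference. For Igfbp5 r was 0.63, and 0.050 without the 2 farthest arrays. The 10 pairs of Igf1r ran from -0.64 to 0.69. For Igf1r, 2 pairs passed by r. One, 1426565_at and 1428967_at, was positive and passed by rho too, with r of 0.69 and rho of 0.74. The other, 1428967_at and 1446303_at, was inverse, with r of -0.64, and r was -0.052 without the 2 farthest arrays.

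**Figure D3:**
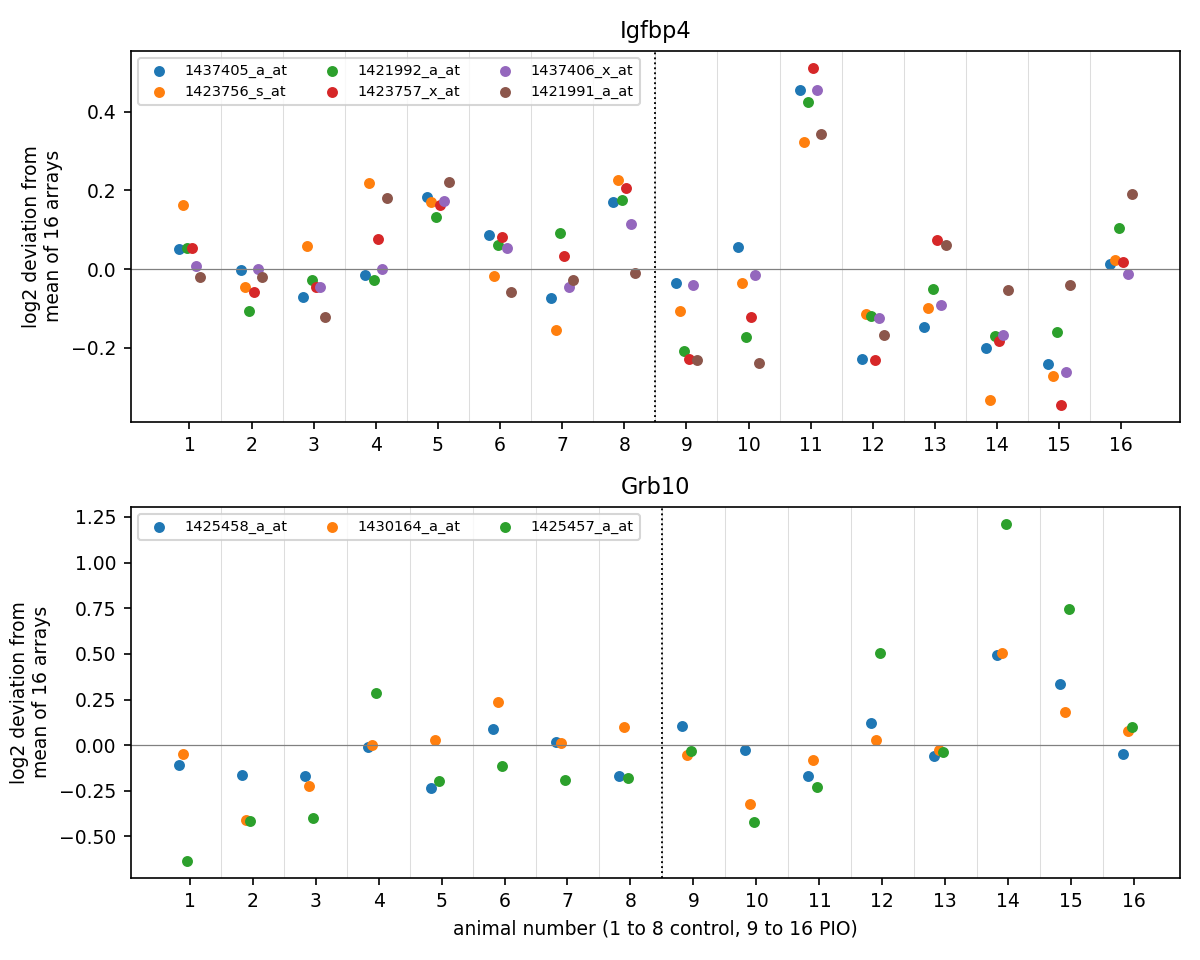
Log2 deviation of each probe set from its mean over 16 arrays (vertical axis) for Igfbp4 (top, 6 probe sets) and Grb10 (bottom, 3 probe sets) in each animal (1 to 8 control, 9 to 16 PIO, parted by the dotted line). In PIO 11 all 6 Igfbp4 points are the highest among PIO animals, and in PIO 14 all 3 Grb10 points are the highest of the 16 animals.

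Of 100 other genes of the pathway, in lists by role, 76 were tested and 0 passed an adjusted p of 0.05 by limma. At an unadjusted p under 0.05 there were 8, 5 higher and 3 lower, or 10.5%, against 7% of all genes, and 9 with the plain two-sample test. The median differences of the lists lay between -0.051 and 0.20 log2 units. Among other ligands, binding proteins and their proteases, 5 of 8 were higher and 3 lower, where 47.3% of all genes were lower. Of these 8, 0 had an unadjusted p under 0.05. Igfbp3, another IGF binding protein, averaged 8.76 ± 0.36 in control and 9.02 ± 0.12 in PIO animals (SD, 8 per group), the latter all above the control median. Stc1, which encodes stanniocalcin 1, differed by 0.27 (SE 0.15), and Ide, the insulin-degrading enzyme, by -0.069 (SE 0.059). Igf2, the ligand cleared by the Igf2r product, was picked out after its values were seen. It ran from 8.04 to 11.48 in controls and from 8.17 to 12.02 with PIO, highest in PIO 11 and lowest among PIO animals in PIO 9, with a difference of 0.48 (SE 0.65). Igfbp2, chosen likewise, ran from 9.00 to 11.71 and from 9.18 to 11.90, with PIO 11 and PIO 9 again at the ends of the PIO range. These ranges were wider than that of any member's brightest probe set, which spanned at most 0.93 over all animals. The animals at the ends of the PIO range are also in the high (PIO 11) and low (PIO 9) cluster of the choroid plexus list. On that list PIO 13 was the lowest PIO animal (-3.20). On the mural and leptomeningeal list PIO 11 was the highest (0.97) and PIO 9 the lowest (-1.0) of all animals. The part of either tissue was not tested.

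Of 24 other receptor-proximal proteins, 12 were higher and 12 lower, where 47.3% of all genes were lower. By limma 4 of them (16.7%) had an unadjusted p under 0.05, beside 7% of all genes. Ptprf, a receptor-type phosphatase that can act on the insulin receptor, averaged 10.65 ± 0.12 in control and 10.94 ± 0.22 in PIO animals (SD, 8 per group), with 5 of 8 PIO animals above all controls and a difference of 0.29 (SE 0.085, adjusted p = 0.589 by limma). Sh2b2, an adaptor of the insulin receptor also known as APS, differed by 0.38 (SE 0.12). Gab1, a docking protein related to the IRS family, differed by -0.22 (SE 0.086), with 3 PIO animals below all controls. Ptprf was highest in PIO 15, the animal with the highest striatal mean.

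In the PI3K, AKT and FOXO arm 15 of 23 genes were lower and 8 higher, where 47.3% of all genes were lower. By limma 2 of them (8.7%) had an unadjusted p under 0.05, beside 7% of all genes. Gsk3b, a kinase that AKT inhibits, lay between 12.20 and 13.04 in controls and between 11.90 and 12.43 with PIO, and all 8 PIO animals were below the control median. Its difference was -0.31 (SE 0.11, adjusted p = 0.681 by limma). Phlpp1, a phosphatase that acts on AKT, differed by -0.14 (SE 0.057) and Pik3r2, a regulatory subunit of PI3K, by -0.052 (SE 0.031). In the RAS and MAPK arm 16 genes were listed, of which 9 had a probe set with 1 symbol and were tested. Of these 9, 7 were higher and 2 lower, and 1 of the higher ones (11.1% of the 9) had an unadjusted p under 0.05. That gene, Rps6ka6, a ribosomal S6 kinase, averaged 7.96 ± 0.044 in control and 8.17 ± 0.11 in PIO animals (SD, 8 per group; adjusted p = 0.457 by limma). Araf, a RAF kinase, differed by 0.18 (SE 0.11) and Nf1, a negative regulator of RAS, by 0.11 (SE 0.079). Of 12 genes known to be raised by FOXO factors, 8 were higher and 4 lower, and 1 (8.33%), Cited2, had an unadjusted p under 0.05. Cited2, a transcriptional regulator, differed by 0.12 (SE 0.050), the sestrin gene Sesn1 by 0.16 (SE 0.085) and the cyclin gene Ccng2 by 0.066 (SE 0.048). None of these genes passed the test.

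**Figure D4:**
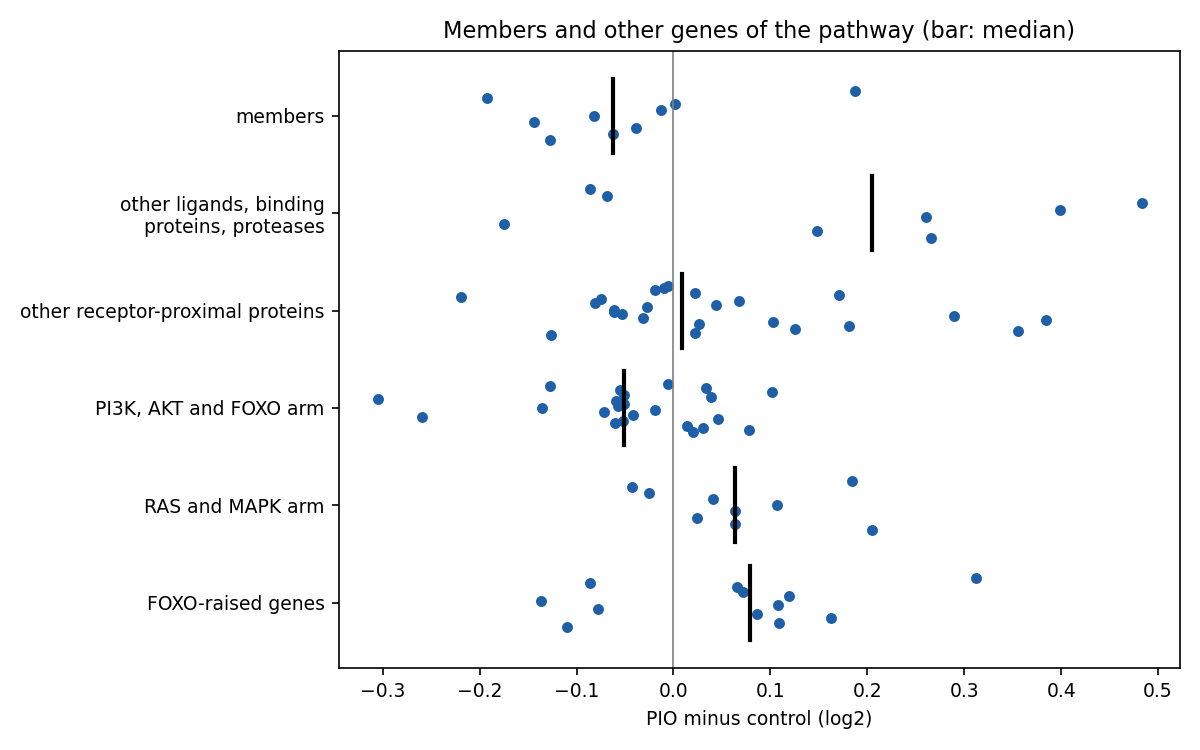
PIO minus control on the log2 scale (horizontal axis) for the 9 members and for the tested genes of 5 lists of the same pathway, with 1 point per gene and a bar at the list's median. The points of each list lie on both sides of 0, and medians run from -0.063 for the members to 0.20 for the other ligands, binding proteins and proteases.

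For each member the 3 genes most alike across animals were taken, as the highest Pearson's r of deviations from group means over 16 arrays among 12266 genes. They are descriptions, picked from many genes that share the same arrays. For Insr they were Gpr183, Thada and Bub1b (r of 0.87, 0.77 and 0.77). For Igf1r they were Arfgef2, Slc35a3 and Actn4 (0.83, 0.82 and 0.80). Those nearest to Igf2r were Lcp1, Sf3b4 and Map3k10 (0.87, 0.86 and 0.85). Igf1 was nearest to Zfp212, Ppp1r3d and Fermt3 (0.90, 0.81 and 0.79). Irs1 lay nearest to Tmco4, Cpeb1 and Dicer1 (0.86, 0.83 and 0.83), and Irs2 to Relb, Ppp1r3e and Sntb2 (0.87, 0.86 and 0.85). Grb10 had the closest gene of any member, Ctu2 (0.92), then Ankrd63 (0.89) and Negr1 (0.87). Igfbp4 was nearest to Airn, Kremen1 and Ctf1 (0.89, 0.87 and 0.85). For Igfbp5 the nearest were Fstl1, Paqr6 and Cemip (0.80, 0.79 and 0.79). Between members themselves the lowest r was that of Grb10 and Igfbp4, at -0.64.

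**Figure D5:**
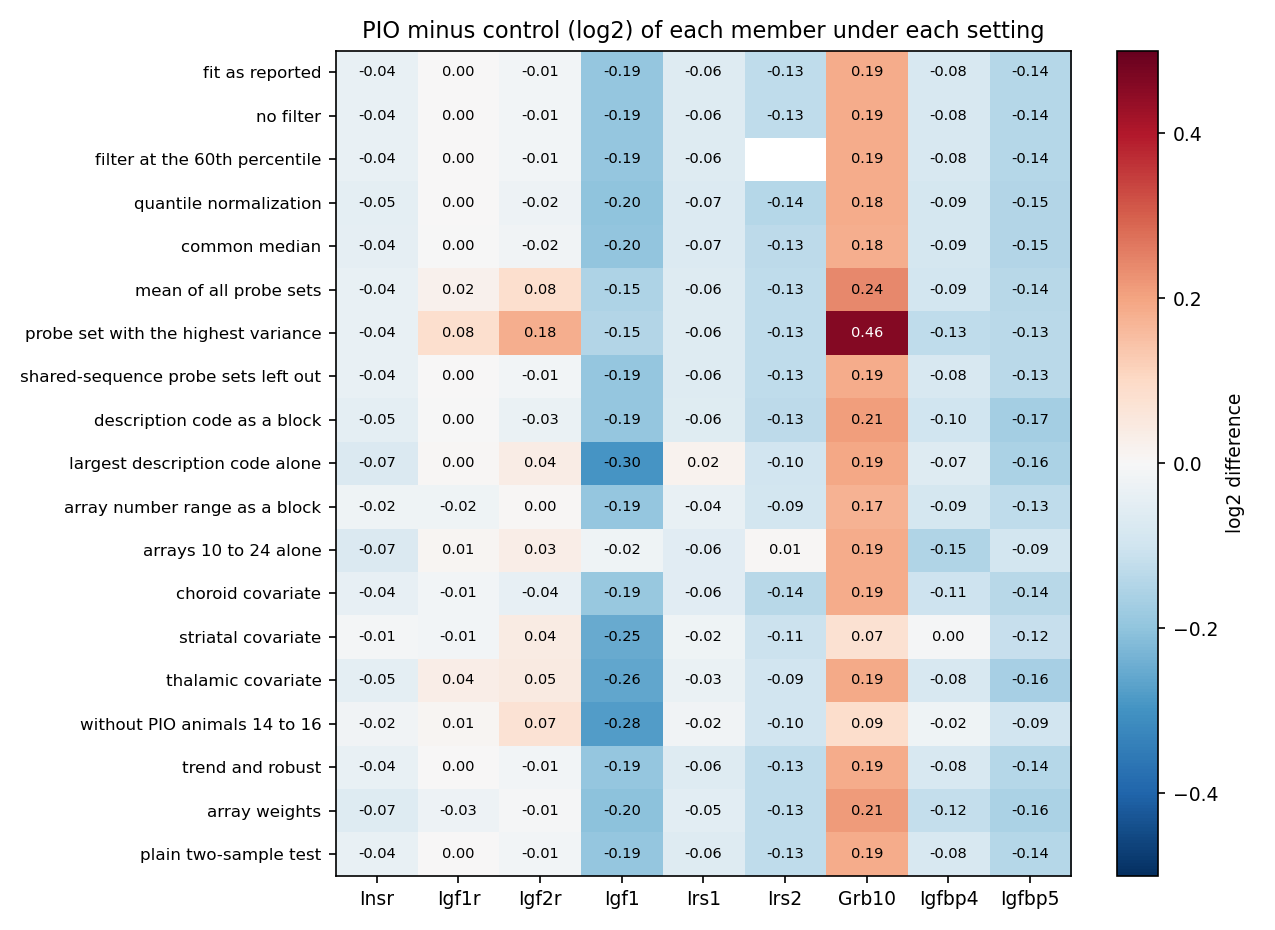
PIO minus control on the log2 scale of each member (columns) as reported and under 18 other settings (rows), coloured from blue (below 0) to red (above 0) with the value in each cell; a blank cell is a gene under that filter. Insr, Igf1, Igfbp4 and Igfbp5 stay below 0 and Grb10 above 0 in every setting drawn, between 0.075 and 0.46 for Grb10, while Igf1 is at -0.022 in arrays 10 to 24 alone.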

How the data were processed

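Hippocampal RNA of 16 mice was measured on 1 array each. The deposited values are log2 expression per probe set, a scale read from the values themselves. The submitters' processing notes name MAS5, GCRMA and R 2.7.1 without a role, so how background was removed is not known here, and a model-based correction can change differences of dim probe sets. Values were used as deposited, and depth has no counterpart on arrays, where their number limits precision. From 45101 probe sets 64 controls were left out, and those with a mean above the 40th percentile (3.58) were kept. Symbols came from the platform annotation, and 34945 probe sets had 1 symbol, 932 several and 9160 none. Each gene was represented by its probe set of highest mean, leaving 12266 genes, and all 27022 probe sets past the filter were fitted separately.

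Differences are PIO minus control from lmFit and eBayes (limma 3.58.1, R 4.3.3), group as the only term, with Benjamini-Hochberg adjustment over all genes or probe sets. SEs are moderated. Exact permutation p-values are two-sided, unadjusted, and cover all 12870 splits into 8 and 8. Correlation p-values are two-sided from 100000 permutations. The fit was also run on simulated data, drawn as independent normal values for each gene. Such data lack the tissue differences between these arrays, so that run cannot vouch for the fit here. Members, gene lists and settings were chosen with earlier results of these data known. All members are named, as are the 3 genes of smallest p in each pathway list and the 3 genes most like each member. Marker list means are averages of centred log2 values. Lists also covered inhibitory neurons, microglia, mature oligodendrocytes, oligodendrocyte precursors, endothelium, and thalamus and habenula.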

Additional observations from a re-analysis of the deposited data

Results flagged for a closer look

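In each group of 8 animals, the distance of the highest and of the lowest animal to its nearest neighbour was set against the group's whole range. Over the 50 groups of the 25 member probe sets past the filter, 14 values, from 10 animals, stood apart on 12 probe sets. For independent, normally distributed values about 1 in 20 groups would be marked. The groups here are not independent, because probe sets of a gene were measured in the same animals. The share marked over all probe sets was not counted, so the count is not a trait of these members. PIO 11 stood high on 2 Igfbp4 probe sets, 1437405_a_at (12.55) and 1437406_x_at (8.78), on Irs2 (6.90) and on the Igf1r set 1426565_at (9.46). Control 3 stood high for Igfbp5 on 1452114_s_at (12.02) and control 4 for Irs1 (10.22). PIO 10 stood high for Insr (9.01), control 6 stood high for Igf1r on 1452982_at (10.98) and control 7 stood low for Igf2r on 1424112_at (8.05). On the dim Igf1r sets, control 5 stood low on 1446303_at (4.17), and on 1452108_at control 7 stood high (5.97) and PIO 12 low (4.92). On 1452014_a_at of Igf1, control 2 (4.60) and PIO 13 (4.51) stood high.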

How the results depend on the processing

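Besides the fit as reported, 18 other settings were run, and each animal was left out in turn. The direction differed in 16 of 161 member values under the other settings and in 17 of 144 with 1 animal left out, and 0 of these values had an adjusted p under 0.05 by limma. Insr, Igf1, Grb10, Igfbp4 and Igfbp5 kept their direction throughout. For Igf1r (0.0014), the difference was -0.0032 with a common median, -9.00e-04 with the label code as a block, -0.020 with the array number range as a block, -0.015 with the choroid and -0.014 with the striatal mean as covariate, and -0.027 with array weights. For Igf2r (-0.013), it was 0.083 as the mean of its probe sets, 0.18 on the most variable one, 0.038 in the largest label code alone, 0.0043 with the number range as a block, 0.032 in arrays 10 to 24, 0.041 with the striatal and 0.046 with the thalamic mean as covariate, and 0.072 without PIO animals 14 to 16. Irs1 was 0.017 in the largest label code alone and Irs2 0.0057 in arrays 10 to 24. The cause was not tested. With 1 animal left out, Igf1r ran from -0.019 to 0.041 and Igf2r from -0.060 to 0.021. At the stricter filter 8 members were tested, without Irs2. No paired analysis was possible because control and PIO animals share no numbers in the labels. With 8 animals per group, 95% intervals of the members on their brightest probe sets reached up to 0.41 log2 units from 0 (Igf1). On other probe sets they reached 0.88 (1425457_a_at of Grb10) and 0.68 (1446303_at of Igf1r). True differences up to the ends of these intervals remain possible.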
